A study of Mus musculus with 16 samples.

Results

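Dppa5a, Khdc3 and Ooep are 3 genes that each encode a small protein with a KH domain, and their levels were followed across all 16 arrays of a study of mouse iPS cells made with human artificial chromosome vectors. The members were every probe whose gene name in the array files was Dppa5a, Ooep or 2410004A20Rik, the older name of Khdc3. This gave 4 of 41174 probes and 3 of 28095 gene names, with 2 probes for Dppa5a and 1 each for Khdc3 and Ooep. Each of the 4 probes rose well above background on 1 or more arrays and entered the test.

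The KH domain is a fold that binds single-stranded nucleic acid, and these genes belong to a family of mammalian KH-domain genes active mainly in germ cells and early embryos. Dppa5a, also called Esg1, is expressed in oocytes, cleavage embryos, primordial germ cells and ES cells, and is widely used as a marker of pluripotency. Ooep (Floped) and Khdc3 (Filia) are known from oocytes, where their proteins join Nlrp5 (Mater) and Tle6 in the subcortical maternal complex beneath the cell membrane. Filia protein is also known from ES cells, for a role in the response to DNA damage.

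Each sample was 1 RNA preparation on 1 single-colour Agilent whole mouse genome array. The clones 1-A3, 1-B, 1-C3 and 1-D6, named iHAC1-iPS, arose from C57BL/6 embryonic fibroblasts (MEFs) that received the vector iHAC1, which carries 2 copies each of Klf4, c-Myc, Sox2 and Oct4 under the CAG promoter. The clones 2-B1, 2-C6, 2-E and 2-N, named iHAC2-iPS, arose from the same kind of MEFs with the vector iHAC2, which adds 2 more copies of Oct4 and a short hairpin RNA against p53. From these came the iHAC-free iPS lines, C57BL/6 subclones that have lost the vector, with F-B1 from 2-B1, F-C5 from 2-C6, F-E4 from 2-E, and F-N7 from 2-N. The fibroblasts behind these clones had also been given miR-294 and miR-295 mimics. The reference samples were MEFs (C57BL/6), the ES cell lines B6ES (C57BL/6) and TT2 (C57BL/6 x CBA), and 20D17, an iPS line made with retroviral vectors (C57BL/6 x DBA). ES cells and microcell hybrid clones were kept on MEF feeder layers. Replicates are separate clones or lines, so the spread is that between clones, and MEFs and 20D17, with 1 array each, have values but no test.

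Levels are given as log2 of a probe's signal relative to the 75th percentile of its array, so that 0 is a signal higher than that of 75% of the spots and a step of 1 is a 2-fold change. Levels of different probes are not comparable with each other. The dimmest probe well above background lay between -6.00 and -4.35 on this scale, depending on the array, and a level called not well above background is only an upper limit with no order among such values. Groups were compared in 1 limma fit of all arrays, and a probe passed the test at an adjusted p under 0.05 with a difference of at least 2-fold. There were 4 slides and 2 scan sessions, the first session with MEFs, ES cells, 20D17 and iHAC1-iPS clones and the second with iHAC2-iPS clones and iHAC-free lines. Where a comparison crosses the sessions, its groups cannot be told apart from the session.

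The array files place the members on chromosome 9 of mm9, but not in 1 cluster of 3. The Dppa5a probes lie on the minus strand at chr9:78215574-78215633 and chr9:78214902-78214961, and the Ooep probe lies on the same strand at chr9:78225830-78225889, a gap of 10.2 kb from the nearer Dppa5a probe. In the RefSeq order of protein-coding genes (GRCm38.p6) Dppa5a and Ooep are direct neighbours, between Gsta2 and Ddx43. The Khdc3 probe lies on the plus strand at chr9:72952157-72952216, 5.26 Mb away. In the RefSeq order Khdc3 stands between Rab27a and Rsl24d1, with 38 protein-coding genes between it and Dppa5a. Dppa5a and Ooep are therefore treated below as a neighbouring pair and Khdc3 as a gene at another place on the same chromosome.

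The probes are 60 bases long, and a probe sequence is shown for each gene of the neighbouring pair. The Dppa5a probe A_52_P18706 starts at base 292 of its transcript and the Ooep probe A_51_P295594 at base 310, both read 5′ to 3′ as printed in the array design.

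Dppa5a A_52_P18706: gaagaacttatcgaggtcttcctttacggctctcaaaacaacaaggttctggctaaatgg

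Ooep A_51_P295594: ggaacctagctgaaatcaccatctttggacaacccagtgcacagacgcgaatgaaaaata

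The other Dppa5a probe, A_52_P362403, starts at base 538 of the transcript, and for it the array files also list 2 predicted transcripts. Dppa5a has near-identical copies elsewhere in the mouse genome, so part of that probe's signal may come from such copies. The Khdc3 probe, A_51_P448127, starts at base 1592.

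The 250 bases before the start site are given for Ooep and Khdc3 because their levels parted in the iHAC2-iPS clones, as described below. RefSeq's promoter table (GRCm38.p6) matched 2 of the 3 members, and Dppa5a had no entry. Capitals mark the match to a searched motif.

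Ooep, minus strand, chr9:78378589-78378838: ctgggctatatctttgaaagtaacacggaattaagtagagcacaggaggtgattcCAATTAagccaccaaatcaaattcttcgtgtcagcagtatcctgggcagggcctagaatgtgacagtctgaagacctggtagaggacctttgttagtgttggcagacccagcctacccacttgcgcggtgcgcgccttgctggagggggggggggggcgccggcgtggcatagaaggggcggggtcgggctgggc

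Khdc3, plus strand, chr9:73102148-73102397: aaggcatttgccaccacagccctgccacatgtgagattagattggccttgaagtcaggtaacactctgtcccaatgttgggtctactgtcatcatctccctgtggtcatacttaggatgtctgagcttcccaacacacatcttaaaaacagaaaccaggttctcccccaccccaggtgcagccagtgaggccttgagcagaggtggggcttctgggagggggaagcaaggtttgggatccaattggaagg

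Exact matches to 7 motifs were counted on both strands of the 300 bases from 250 before to 50 after the start. The Ooep window held 1 match, to TAATTG, a motif of the oocyte factor Nobox, which was read on the opposite strand and began 195 bases before the start. Of all 32851 promoters in the table, 8.0% held this motif. The Khdc3 window held none of the 7. The other motifs and the shares of promoters that held them were the octamer ATGCAAAT (1.74%), the Sox motif CATTGT (12.6%), the Esrrb motif AAGGTCA (4.72%), the Klf motif GGGTGTG (7.95%), the E-box CACGTG (7.15%) and the TATA box TATAAA (13.6%). The shares of G and C in the 250 bases were 57.2% for Ooep and 52.4% for Khdc3, against a median of 52.4% over all promoters.

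Dppa5a separated the 16 lines into a high and a low set. At the probe A_52_P362403, well above background on all 16 arrays, the level was 8.96 in B6ES and 8.36 in TT2, and 8.74 in 20D17. The iHAC2-iPS clones had levels of 8.71 (2-B1), 7.68 (2-C6), 8.05 (2-E) and 9.43 (2-N). Among iHAC-free lines F-B1 had 8.71, while F-E4 had 8.98, F-C5 had 9.01 and F-N7 had 9.04. These 11 lines lay between 7.68 and 9.43, and the iHAC2-iPS range took in all the others. The MEF level was -2.18, and the iHAC1-iPS clones had -1.72 (1-A3), 0.39 (1-B), 3.22 (1-C3) and -1.25 (1-D6). Every iHAC1-iPS clone was below every ES, iHAC2-iPS and iHAC-free line and above the MEF array, and 1-C3 was the highest of the 4.

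The second Dppa5a probe, A_52_P18706, split the lines in the same way, with 2-N again the highest iHAC2-iPS clone and 1-C3 the highest iHAC1-iPS clone. Its levels were 5.90 and 5.04 in B6ES and TT2, between 4.53 (2-C6) and 7.05 (2-N) in iHAC2-iPS clones, and between 5.90 (F-B1) and 6.48 (F-N7) in iHAC-free lines. In the iHAC1-iPS clones they were -5.35 (1-A3, not well above background), -2.95 (1-B), -0.23 (1-C3) and -5.42 (1-D6), and on the MEF array -5.73, also not well above background. Over the 16 arrays Pearson's r between the 2 probes was 0.998.

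Ooep had the same high set except for a drop in 3 iHAC2-iPS clones. Its level was 2.49 in B6ES, 2.75 in TT2 and 2.56 in 20D17, and among iHAC-free lines it was 3.35 in F-C5, 3.04 in F-E4, 3.01 in F-N7 and 3.0 in F-B1. The iHAC2-iPS clones had 0.87 (2-B1), -0.36 (2-C6), -0.05 (2-E) and 3.47 (2-N), so 3 clones were below every ES and iHAC-free line and 2-N was above them all. The iHAC1-iPS clones had -7.13 (1-A3), -6.04 (1-B), -5.20 (1-C3) and -6.19 (1-D6), of which the array of 1-C3 alone was well above background. The MEF array had -3.81, well above background and higher than each of the 4 iHAC1-iPS clones.

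Khdc3 was detected on 9 of the 16 arrays. Its level was 3.41 in B6ES, 1.65 in TT2 and 3.75 in 20D17, and among iHAC-free lines it was 2.13 in F-N7, 1.45 in F-C5, 1.42 in F-B1 and 0.46 in F-E4. The iHAC2-iPS clones had -5.32 (2-B1, not well above background), -4.52 (2-C6), -7.30 (2-E, not well above background) and 0.24 (2-N). All 4 clones were below every iHAC-free and ES line, with 2-N nearest to them. None of the iHAC1-iPS arrays had it well above background, and the values there were -6.34 (1-A3), -7.66 (1-B), -7.76 (1-C3) and -7.98 (1-D6), and the same held for the MEF array at -8.22.

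**Figure D1:**
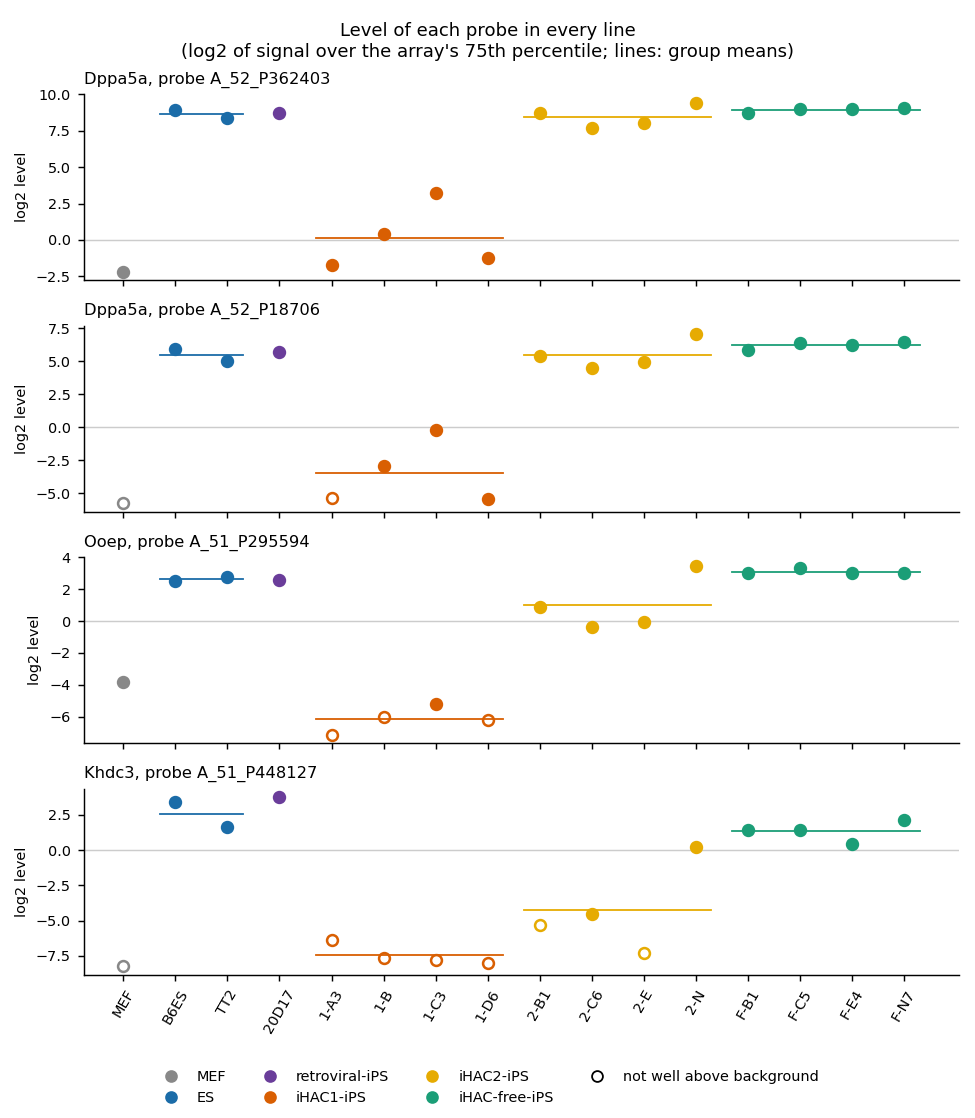
Level of each of the 4 probes (log2 of signal over the 75th percentile of the array, vertical axis) in the 16 lines (horizontal axis, coloured by group), with horizontal lines for group means and open circles for arrays where the probe was not well above background. Dppa5a is high in all lines but MEFs and iHAC1-iPS clones, Ooep is lower in 2-B1, 2-C6 and 2-E, and Khdc3 is at 0.24 in 2-N but at or under -4.52 in the other iHAC2-iPS clones.

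In order of group means, Dppa5a at A_52_P362403 ran from iHAC-free lines (8.93 ± 0.154, SD, n = 4) through 20D17, ES cells (8.66 ± 0.426, SD, n = 2) and iHAC2-iPS clones (8.47 ± 0.770, SD, n = 4) to iHAC1-iPS clones (0.16 ± 2.23, SD, n = 4) and MEFs. The iHAC-free, ES and iHAC2-iPS groups did not differ detectably from each other at this probe, and 20D17, with 1 array, was not tested. For Ooep the order was iHAC-free lines (3.1 ± 0.167, SD, n = 4), ES cells (2.62 ± 0.180, SD, n = 2), 20D17, iHAC2-iPS clones (0.99 ± 1.74, SD, n = 4), MEFs and iHAC1-iPS clones (-6.14 ± 0.792, SD, n = 4). The iHAC-free range lay above the ES range, as for 20.6% of all probes, and their difference of 0.48 did not pass the test (adjusted p = 0.781). For Khdc3 the order was 20D17, ES cells (2.53 ± 1.25, SD, n = 2), iHAC-free lines (1.36 ± 0.687, SD, n = 4), iHAC2-iPS clones (-4.23 ± 3.20, SD, n = 4, with 2 of the arrays not well above background), and last the iHAC1-iPS clones and MEFs, where it was not well above background.

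The members also differed in how far clones of 1 group lay apart, here with every value not well above background set to the detection limit of its array. Among iHAC2-iPS clones the SD of Khdc3 was then 2.46, larger than that of 99.9% of the 31415 probes tested, where the median was 0.310, and that of Ooep, 1.74, was larger than 99.2%. Among iHAC1-iPS clones the wide gene was Dppa5a, with an SD of 2.23 at A_52_P362403, larger than 99.7% of probes (median 0.217), and a 30.8-fold range from 1-A3 to 1-C3. Among iHAC-free lines the SD of Dppa5a at that probe and of Ooep was below the median of 0.218, and that of Khdc3 was larger than 96.8% of probes. Between the ES lines Khdc3 was 3.39-fold lower in TT2 than in B6ES, while Ooep differed 1.19-fold.

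The first comparison asks how far iHAC1-iPS clones, which carry the vector without extra Oct4 and p53 knockdown, are from ES cells. All 4 probes were lower in iHAC1-iPS clones and passed the test, and no group ranges overlapped. Over all probes tested, 7.39% were called lower in this comparison and in 25.5% the iHAC1-iPS range lay wholly below the ES range. Dppa5a differed by -8.50 ± 1.03 (log2 difference ± SE, adjusted p = 0.000299) at A_52_P362403 and by -8.96 ± 1.18 (adjusted p = 0.000491) at A_52_P18706, which are 362-fold and 497-fold. Ooep differed by -8.76 ± 0.834 (adjusted p = 7.55e-05), 434-fold on the measured means, or 266-fold with the 3 dim arrays set to the detection limit. Khdc3 differed by -9.97 ± 1.48 (adjusted p = 0.00103) as measured. No iHAC1-iPS array detected it, and the ES mean was 265-fold above the mean of their detection limits. Within the slide that held both ES lines and 1-D6, the differences were -9.91 and -10.89 for Dppa5a, -8.81 for Ooep and -10.51 for Khdc3. With the slide as a fixed block the adjusted p lay between 0.00320 (Ooep) and 0.0134 (Khdc3).

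In these bulk samples, fewer cells expressing a gene and less RNA per cell cannot be told apart. Feeder cells and fibroblasts that were not reprogrammed could both be in the samples, and all 8 fibroblast markers tested (Col1a1, Col1a2, Col3a1, Thy1, Twist1, Postn, Dcn and Lum) were well above background on every array. Of these, 3 of 8 were called higher in iHAC1-iPS clones than in ES cells (Col1a1, Col1a2 and Col3a1), against 6.88% of all probes. The mean level of the list was 3.04 to 3.84 in iHAC1-iPS clones, 1.21 to 2.40 in ES cells, 1.83 to 3.73 in iHAC2-iPS clones, 2.52 to 3.63 in iHAC-free lines, 3.32 in 20D17 and 4.26 in MEFs. The iHAC-free range overlapped the iHAC1-iPS range, and 0 of 8 markers were called between these groups. The part of such cells in the result was not tested.

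Against iHAC-free lines all 4 probes were again lower in iHAC1-iPS clones and passed the test, with 11.2% of all probes called lower and 21.2% wholly below the iHAC-free range. The log2 differences were -8.78 and -9.73 for Dppa5a, -9.24 for Ooep and -8.80 for Khdc3, with adjusted p between 6.38e-06 (Ooep) and 0.000269 (Khdc3). For Khdc3 the iHAC-free mean was 118-fold above the mean detection limit of the iHAC1-iPS arrays. This comparison crosses the scan sessions and shares its iHAC1-iPS samples with the comparison with ES cells.

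The next comparison asks whether iHAC2-iPS clones, with the vector still present, reached ES levels. Dppa5a did not differ detectably, at -0.19 (95% confidence interval -2.43 to 2.05) for A_52_P362403 and 0.02 (-2.54 to 2.59) for A_52_P18706. Khdc3 was lower in iHAC2-iPS clones, at -6.76 ± 1.48 (adjusted p = 0.0192), 108-fold on the measured means and 62.0-fold with the 2 dim arrays at the detection limit. It was the 1 probe of 4 to pass, against 3.27% of all probes called lower, and its ranges did not overlap, as for 16.5% of probes in that direction. Ooep differed by -1.63 ± 0.834, which did not pass (adjusted p = 0.203), and its range overlapped that of ES cells through 2-N. The call for Khdc3 rests on the full set of arrays. It was lost without B6ES (adjusted p = 0.140), without TT2 (adjusted p = 0.0761) and when no other group entered the fit (adjusted p = 0.152). Without 2-N, Ooep passed as well, at -2.46 (adjusted p = 0.0111).

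**Figure D2:**
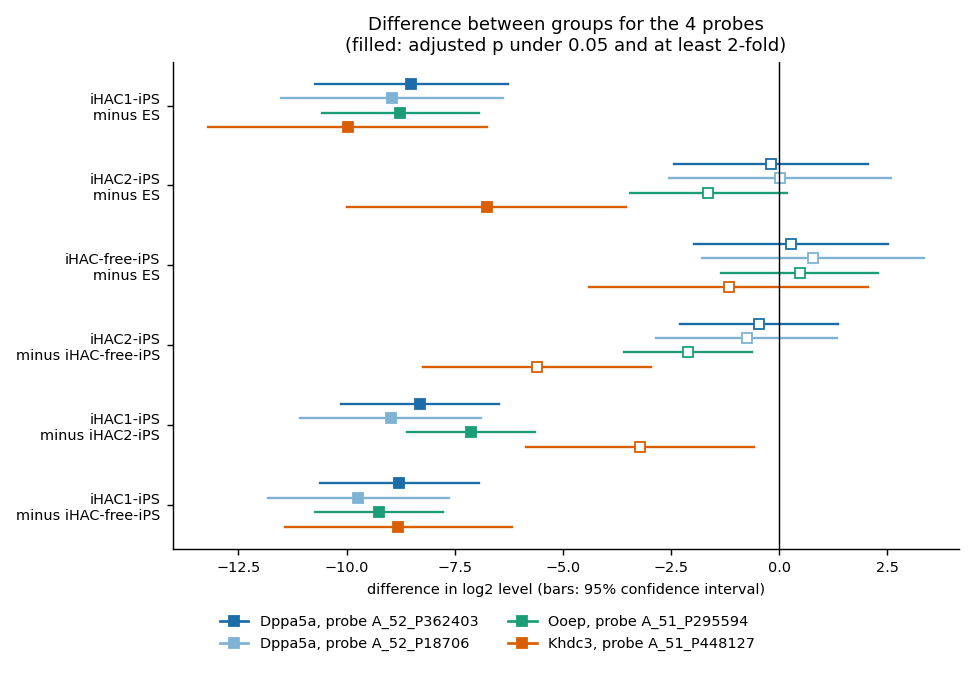
Difference in log2 level between groups (horizontal axis, first group minus second, bars are 95% confidence intervals) for the 4 probes in 6 comparisons (vertical axis), with filled squares where a probe passed the test. All 4 probes are far below 0 for iHAC1-iPS against ES and against iHAC-free lines, and Khdc3 alone is filled for iHAC2-iPS against ES, at -6.76.

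The pairing sets each iHAC2-iPS clone, which carries the vector, beside the iHAC-free line derived from it. The study obtained the derived lines by sorting EGFP-negative cells and subcloning them. Loss of the vector therefore cannot be told apart from sorting and subcloning. Khdc3 was higher in the derived line in 4 of 4 pairs, by 6.74 from 2-B1 to F-B1, 5.97 from 2-C6 to F-C5, 7.76 from 2-E to F-E4 and 1.89 from 2-N to F-N7. In the 2 pairs whose clone was not well above background, the difference from the detection limit was 5.76 (2-B1) and 5.53 (2-E). Ooep was higher in 3 of 4 pairs, by 2.13, 3.70 and 3.09, and in the pair of 2-N the difference was -0.46. Dppa5a at A_52_P362403 moved least, with differences of -0.01, 1.33, 0.93 and -0.39 in the same order. At A_52_P18706 the differences were 0.45, 1.87, 1.26 and -0.57. The two-sided exact sign-flip test over 4 pairs cannot give a p below 0.13, which Khdc3 reached, with exact p = 0.25 for Ooep and 0.5 for Dppa5a at A_52_P362403.

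**Figure D3:**
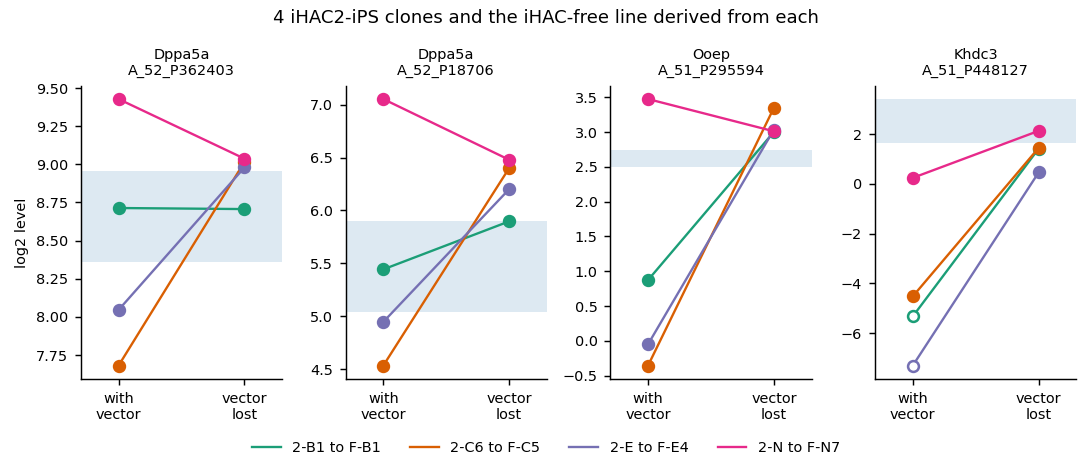
Level of each probe (log2, vertical axis, a scale of its own in each panel) in the 4 iHAC2-iPS clones and in the iHAC-free line derived from each, joined by a line, with open circles for arrays where the probe was not well above background and a blue band for the range of the ES lines. For Khdc3 all 4 lines rise, by 1.89 to 7.76, while for Ooep and Dppa5a the pair 2-N to F-N7 falls.

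As groups, the 4 iHAC2-iPS clones were lower than the 4 iHAC-free lines in Khdc3, at -5.59 ± 1.21 (SE, 48.2-fold) on the measured means and -4.79 (27.6-fold) with the 2 dim arrays at the detection limit, and no values overlapped, as for 4.47% of all probes in that direction. In limma the adjusted p was 0.0506, just past the threshold, so none of the 4 members passed (0.554% of all probes were called lower). The line of origin as a block gave Khdc3 an adjusted p of 0.0406. The adjusted p of Khdc3 ran from 0.000384 without 2-N, where the difference was -7.08, to 0.147 over the alternatives. The two-sided exact permutation test over these 8 arrays, which leaves out the pairing, gave p = 0.0286, the smallest it can give. Its adjusted p was 0.0429 over 12 such tests. These included the comparisons with iHAC1-iPS clones, where most tests also gave the smallest p, so the adjusted p depends on that choice of tests. Ooep differed by -2.11 ± 0.681 (adjusted p = 0.152), and without 2-N by -2.94 (adjusted p = 0.00269). Dppa5a differed by -0.47 (-2.30 to 1.36) and -0.75 (-2.85 to 1.34). Both groups shared slides 3 and 4, and the difference in Khdc3 was -4.32 within slide 3, which held 2-N, and -6.87 within slide 4. For Ooep these values were -0.83 and -3.39. The mean level of the fibroblast markers was lowest in 2-N (1.83) and highest in 2-B1 (3.73) among the clones, with 0 of 8 markers called between the groups, and its part in the result was not tested.

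Between iHAC1-iPS and iHAC2-iPS clones, Dppa5a and Ooep passed the test and Khdc3 did not. Dppa5a was lower in iHAC1-iPS clones, at -8.31 and -8.98 (adjusted p = 7.03e-05 and 9.31e-05) and Ooep at -7.13 (adjusted p = 5.21e-05), each with no overlap. Khdc3 differed by -3.21 ± 1.21 (adjusted p = 0.0539). Its ranges overlapped through 2-E alone, at -7.30 and not well above background. It was well above background on no iHAC1-iPS array and on 2 of 4 iHAC2-iPS arrays (2-C6 and 2-N), which were above every iHAC1-iPS value. Over all probes 11.3% were called lower in iHAC1-iPS clones and 18.3% lay wholly below the iHAC2-iPS range.

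The test of unequal change compared, within each array, the distance between 2 members. The distance from Dppa5a (A_52_P362403) down to Khdc3 was 9.18 to 15.35 in iHAC2-iPS clones and 6.90 to 8.52 in iHAC-free lines, a difference of 5.12 between groups (two-sided exact permutation test, p = 0.0286, adjusted p = 0.0571 over 6 tests). Khdc3 against Ooep changed by -3.48 (exact p = 0.0286, adjusted p = 0.0571). Dppa5a against Ooep changed by 1.65 (exact p = 0.0571, adjusted p = 0.0686). With values not well above background set to the detection limit, the first 2 had an adjusted p of 0.0429 by the exact test. Between iHAC1-iPS and iHAC2-iPS clones the same 3 distances changed by -5.10, 3.92 and -1.18 (adjusted p = 0.0686, 0.0571 and 0.286, exact permutation test). Khdc3 on all 4 and Ooep on 3 of 4 iHAC1-iPS arrays were not well above background there, and at the detection limit the first 2 were -6.21 and 4.32 (adjusted p = 0.0429, exact permutation test). With levels as measured, none of the 6 tests had an adjusted p under 0.05 by the exact permutation test. The detection limit was an alternative chosen after seeing the data. At most, such distances describe an unequal change.

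Between iHAC-free lines and ES cells none of the 4 members passed the test, against 0.366% of all probes called in either direction. The differences were 0.28 (-1.96 to 2.52) and 0.77 (-1.79 to 3.34) for Dppa5a, 0.48 (-1.34 to 2.30) for Ooep and -1.17 (-4.39 to 2.06) for Khdc3. The intervals leave room for changes of over 2-fold in each gene. The retroviral line 20D17 differed from the ES mean by 0.09 and 0.24 for Dppa5a, -0.06 for Ooep and 1.22 for Khdc3.

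Clones that stood out in the members also stood out in other pluripotency genes. The study assayed these lines by RT-PCR for pluripotency markers, Dppa5a among them, so that set is not independent evidence of its direction. For 8 others of the set (Nanog, Esrrb, Dnmt3l, Utf1, Dppa3, Tcl1, Zfp42 and Gbx2), 2-N was the highest iHAC2-iPS clone in 8 of 8, with a mean level of 2.76 against -0.14 to 0.57 in the other 3 clones and 2.42 to 2.57 in iHAC-free lines. Among iHAC1-iPS clones, 1-C3 was the highest in 6 of 8, with a mean of -1.75 against -4.13 to -2.89. Of these 8 genes, 7 were called lower in iHAC1-iPS clones than in ES cells (7.39% of all probes). In iHAC2-iPS clones 1 was (Zfp42, -3.08, adjusted p = 0.0429, with 3.27% of all probes), and in iHAC-free lines 0 were (0.366% in either direction). The median difference of the list from ES cells was -5.89, -1.78 and -0.05 in these groups, against 0.02, 0.05 and 0.02 over all probes. None was called between iHAC2-iPS clones and iHAC-free lines, although all 8 were lower in the clones. For Zfp42 the ES lines lay apart, at 2.89 (B6ES) and 5.18 (TT2). The clone 2-N, at 2.92, was above B6ES, and the iHAC-free lines, at 2.33 to 2.62, were below both ES lines.

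The partners of Ooep and Khdc3 in the maternal complex did not move as a unit. Of 7 genes, 6 were tested, since Nlrp5 (Mater), the scaffold of the complex, was not well above background on any array. Nlrp4f, a relative of Nlrp5, was the nearest to the members, with levels of 0.35 in B6ES and -1.79 in TT2 and of -0.37 to 1.24 in iHAC-free lines. In iHAC2-iPS clones it was 0.35 in 2-N and -4.86 to -1.67 in the others. Nlrp4f was lower in iHAC1-iPS clones than in ES cells (adjusted p = 0.00392). No iHAC1-iPS array had it well above background, and the ES mean was 27.8-fold above the mean of their detection limits. Tle6, a transcriptional corepressor relative and complex member, was between 0.52 and 3.11 in all iPS and ES lines and was lower in iHAC1-iPS clones than in iHAC-free lines, at -1.67 (adjusted p = 0.00192). Padi6, a peptidylarginine deiminase of the oocyte lattices, was highest in iHAC-free lines, at -3.59 to -1.96, where it was detected on all 4 arrays, and it was detected on 1 of 2 ES, 1 of 4 iHAC2-iPS and no iHAC1-iPS arrays. The iHAC-free mean of Padi6 was 6.03-fold above the mean detection limit of the iHAC1-iPS arrays. Nlrp14 was the 1 partner called between iHAC2-iPS clones and iHAC-free lines, with an adjusted p of 0.0206, but no iHAC2-iPS array detected it and their detection limits, at a mean of -4.76, reached the iHAC-free mean of -4.83, so no size can be given. Zbed3 and Nlrp2 were called the other way, higher in iHAC1-iPS clones than in iHAC-free lines by 1.36 and 1.17. In that comparison 2 of 6 partners were called higher and 4 lower, against 2782 and 3521 of all 31415 probes tested. In counts, 3 of 6 partners were lower and 1 (Zbed3) higher in iHAC1-iPS clones against ES cells (7.39% and 6.88% of all probes), with a median of -1.60 on the measured means. The 3 lower ones (Nlrp4f, Nlrp14 and Padi6) were well above background on none of the iHAC1-iPS arrays.

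Of 9 oocyte markers, 5 were detected on 1 or more arrays. Zp1, Zp2, Bmp15 and Oosp1 were not well above background on any array, and Gdf9 and H1foo were detected on all 16. Zp3, a zona pellucida gene, followed the members, with 0.21 and -0.23 in the ES lines, -0.24 to 0.03 in iHAC-free lines, -0.04 in 2-N, -3.75 to -2.66 in the other iHAC2-iPS clones and -6.15 to -3.84 in iHAC1-iPS clones, where 2 of 4 arrays were well above background. It was lower in iHAC1-iPS clones than in ES cells, at -5.06 (adjusted p = 0.00187), the 1 of 5 markers called there (7.39% of all probes called lower). Gdf9 and H1foo did not follow the members, differing by 0.04 and 0.54 in that comparison. Nobox, a homeobox factor of oocytes, was well above background on the 4 iHAC-free arrays and no other. Its iHAC-free mean of -4.53 was only 1.17-fold above the mean detection limit of the iHAC2-iPS arrays, at -4.76. Nobox was called against iHAC1-iPS clones (adjusted p = 0.000525), with the iHAC-free mean 1.98-fold above the mean detection limit of the iHAC1-iPS arrays. Figla, another oocyte factor, was detected on 1 iHAC2-iPS and 1 iHAC-free array, and it was called lower in iHAC1-iPS clones than in both groups (adjusted p = 0.00661 and 0.0139), most of whose arrays give limits and not levels. Of the 5 markers, 2 were called lower in iHAC1-iPS clones than in iHAC2-iPS clones and 3 than in iHAC-free lines. Over all probes the shares were 11.3% and 11.2%.

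Dppa4 and Dppa2 were lower in iHAC1-iPS clones, as Dppa5a was, and Dppa1 was not well above background on any array. Dppa3, in the marker list above, differed by -2.57 between iHAC2-iPS clones and ES cells without being called. Dppa5a differed by -0.19 there at A_52_P362403. Dppa4 was lower in iHAC1-iPS clones than in ES cells, at -6.38 (adjusted p = 0.00403), and, as with Dppa5a, 1-C3 was the highest of the 4 clones, at 0.03, with 3 of the 4 arrays well above background. Dppa2, which encodes a chromatin-bound partner of Dppa4, differed by -3.50 (adjusted p = 0.000464). Neither was called between iHAC2-iPS clones, iHAC-free lines and ES cells. The KH-domain relatives of the Khdc1 group were low throughout, except Khdc1b in 2-N, at 0.05 and detected there alone.

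Among 35 other genes with KH domains, mostly general RNA-binding proteins, 34 were tested and 32 to 34 were well above background on each array. Against ES cells, 4 were called higher in iHAC1-iPS clones (Igf2bp2, Mex3a, Mex3b and Tdrkh) and 1 lower (Igf2bp1, -1.88, adjusted p = 0.00193), with 6.88% and 7.39% over all probes. The largest of these was Mex3b, at 2.28 (adjusted p = 0.00354). The median difference of the list was -0.03, against 0.02 over all probes. In iHAC2-iPS clones 1 was higher (Igf2bp2) and 2 lower (Khsrp and Nova1, the latter detected on no iHAC2-iPS array). Of all 31415 probes tested, 1085 were called higher and 1028 (3.27%) lower in that comparison. None was called between iHAC2-iPS clones and iHAC-free lines.

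**Figure D4:**
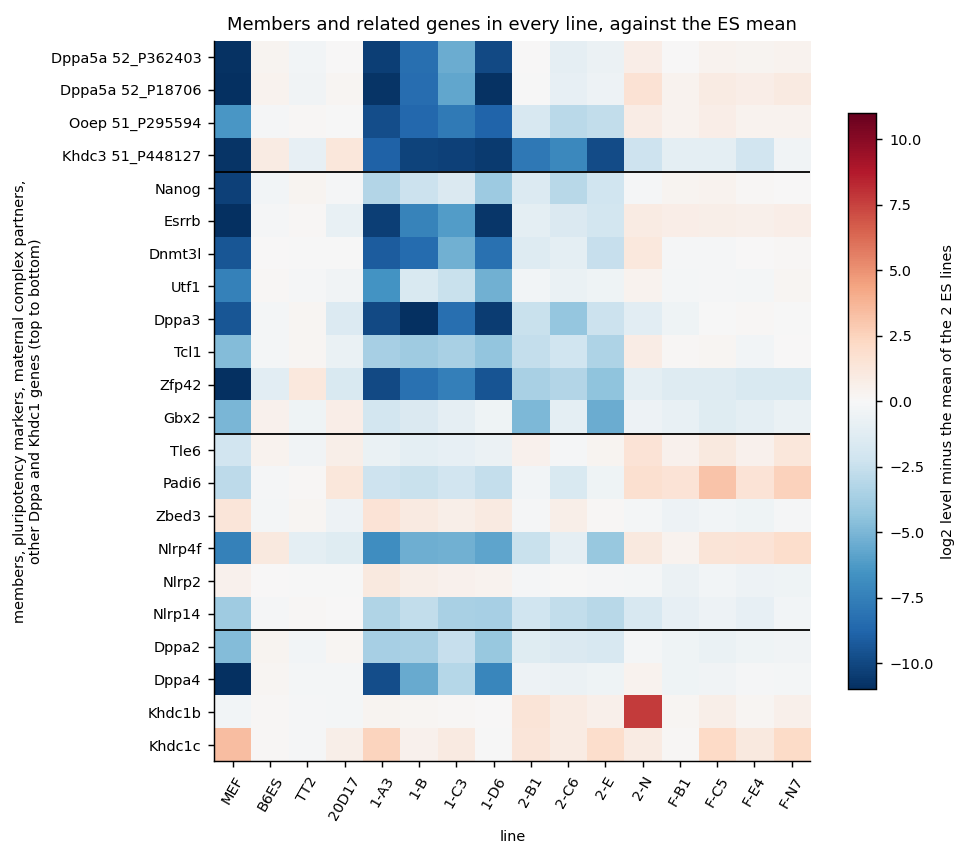
Log2 level minus the mean of the ES lines (colour, blue below and red above) for the 4 member probes and, from top to bottom between the black lines, 8 pluripotency markers, 6 partners in the maternal complex and 4 other Dppa and Khdc1 genes (rows) in the 16 lines (columns), with values not well above background drawn as measured. Khdc3 lies -9.83 to -7.05 from the ES mean in 2-B1, 2-C6 and 2-E, and Khdc1b is red in 2-N alone.

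Genes near the members on chromosome 9 were described next. Within 500 kb of the Dppa5a and Ooep probes, 23 of 27 probes were tested, and 0 were called between iHAC2-iPS clones and iHAC-free lines (median difference 0.23, with 0.554% of all probes called lower). They were named for Elovl5, Gcm1, Fbxo9, Ick, Cilk1, C920006O11Rik, Gsta4, Gsta1, Gsta2, 4930542C12Rik, Ddx43, Cgas, Mto1, Eef1a1, Slc17a5 and Cd109, and 1 probe (A_51_P305138) had no gene name. Ddx43, a helicase gene that follows Ooep and itself holds a KH domain, was lower in iHAC1-iPS clones than in ES cells, at -3.91 (adjusted p = 0.00813), with 2 of 4 iHAC1-iPS arrays well above background. Its level was -1.29 and -2.33 in the ES lines, -2.48 to -2.12 in 2-B1, 2-C6 and 2-E, 0.11 in 2-N and -1.27 to -1.09 in iHAC-free lines. Gsta2, on the other side of Dppa5a, was well above background on the MEF array alone. Of the 23 probes, 2 were called lower and 1 higher in iHAC1-iPS clones against ES cells (7.39% and 6.88% of all probes). Beside Ddx43 the called genes were Cgas, a sensor of cytosolic DNA, at -1.28 (adjusted p = 0.0454), and Slc17a5, a sialic acid transporter, at 1.44 (adjusted p = 0.0332).

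Around Khdc3, 24 of 30 probes were tested and 4 were called lower in iHAC2-iPS clones than in iHAC-free lines, in 2 genes. Over all probes 0.554% were called lower in this comparison. The names around Khdc3 were Rfx7, Gm7265, Nedd4, Prtg, Pygo1, Dnaaf4, Gm5918, Ccpg1, Pigb, 2310009A05Rik, Rab27a, Gm6457, Rsl24d1, Gm5745, Unc13c and AK036163. All 3 probes of Prtg, which encodes the adhesion protein protogenin, were lower, at -2.57, -2.96 and -2.92 (adjusted p = 0.00759, 0.00659 and 0.00501), the first with 1 of 4 clones well above background. At A_52_P674087 Prtg had 0.64 (2-B1), -0.08 (2-C6), -0.29 (2-E) and -0.74 (2-N) in the clones, against 2.29 to 3.29 in the iHAC-free lines. For Prtg 2-N was the lowest clone at that probe, and the iHAC1-iPS clones, at 1.79 to 3.17, were above all iHAC2-iPS clones, unlike Khdc3. The fourth probe was of Rab27a, a gene of vesicle transport that lies next to Khdc3, with a gap of 7.43 kb between the probes. It differed by -1.46 (adjusted p = 0.0496, A_52_P426740), with 2 of 4 iHAC2-iPS arrays well above background and -3.82, -4.38, -3.11 and -2.65 in the clones and -2.23 to -1.83 in the iHAC-free lines. The other Rab27a probe, A_52_P29615, was detected on no iHAC2-iPS and 1 iHAC-free array and was not called (adjusted p = 0.619). None of the iHAC1-iPS arrays had either Rab27a probe well above background. Rsl24d1, on the other side of Khdc3, was between 0.78 and 1.75 in all iPS and ES lines.

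**Figure D5:**
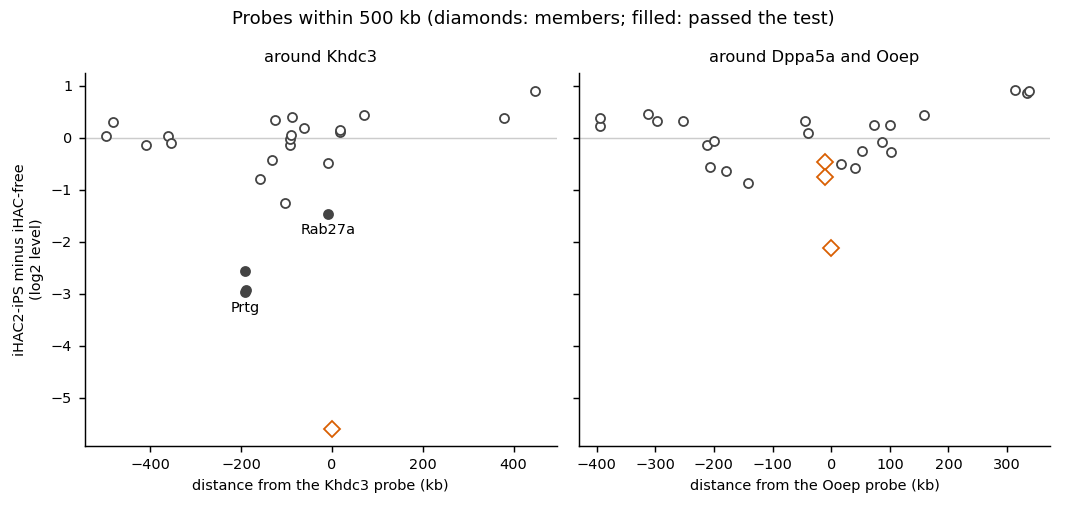
Difference in log2 level between iHAC2-iPS clones and iHAC-free lines (vertical axis) for probes within 500 kb of Khdc3 (left) and of Dppa5a and Ooep (right), against distance from the Khdc3 or the Ooep probe in kb (horizontal axis), with diamonds for members and filled symbols for probes that passed the test. On the left Khdc3 lies at -5.59, Prtg and Rab27a are filled, and most other probes lie near 0.

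Across the 16 arrays Ooep followed its neighbour Dppa5a more closely than Khdc3 did. Pearson's r was 0.940 between Ooep and Dppa5a at A_52_P18706, 0.859 between Ooep and Khdc3 and 0.767 between Dppa5a at that probe and Khdc3. These arrays fall into a low set of MEFs and iHAC1-iPS clones and a high set, which the correlations share. Over the 11 arrays of the high set r was 0.824, 0.851 and 0.556 for the same pairs, and Spearman's rho was 0.882, 0.282 and 0.355. Ooep was 254th of 31386 other probes in likeness to that Dppa5a probe, and Khdc3 was 2867th.

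The 5 probes most like each member by Pearson's r over 16 arrays were named for description. For Dppa5a at A_52_P18706 they were those of Pla2g10 (0.997), Esrrb (0.992), Pramel13, Mageb16 and Slc9b1, and 712 probes had r over 0.9. For Ooep they were those of Noxred1 (0.992), Zfp982, 2610036A22Rik, Klf5 (0.980) and NAP102495-1. For Khdc3 they were those of D1Pas1 (0.977), Calcoco2 (0.974), ENSMUST00000059329, Osta and 1700019A02Rik. Over the 11 arrays of the high set, Klf5 was the one of these 15 genes to be named again, for Ooep, at 0.985.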

How the data were processed

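RNA from 16 samples was hybridized by the authors to 1-colour (Cy3) arrays and extracted with Agilent's Feature Extraction (10.7.1.1 and 10.7.3.1). The deposited scanner files hold intensities on a linear scale, with local background subtracted and no scaling between arrays. The authors normalized their data in GeneSpring GX, with settings not given in the sources used here. Their value table, also deposited, is on a log2 scale, with each probe centred around a value that is not stated. Against the scanner values its columns had slopes of 0.999 to 1.00 and medians of -0.33 to 0.28.

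Here control and outlier spots were left out, spots of a probe averaged, and log2 taken relative to the array's 75th percentile. No spot was saturated, and 54.2% to 65.8% of spots were well above background. A probe was tested if any array had it well above background, which left 31415 of 41174. The number of arrays limits the precision. limma 3.58.1 in R 4.3.3 fitted 6 groups with Benjamini-Hochberg adjustment over all probes tested, and was tested on simulated data. Exact tests used scipy 1.17.1 in Python 3.11.15. Where a probe was not well above background, the detection limit is the dimmest probe well above background on that array. Gene names come from the files, updated through RefSeq accessions, and Nanog from a probe's description. Probe positions are on mm9.

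The members and gene lists were chosen with earlier results of these data known. The text names all member probes, called genes of the lists (up to 4 per list and comparison, in the comparisons it describes), the genes of tested probes within 500 kb, and the 5 probes most like each member. For lists, the probe with the highest mean was used. The line of origin pairs each iHAC-free line with its clone, as the study's methods state. Deviations from the group means of such pairs had correlations of -0.219 to 0.0800. Alternatives were the deposited value table, quantile normalization, normexp (offset 50), no filter on dim probes or a strict one (well above background on all arrays of a group of 2 or more), only the compared groups, the slide as a block, 1 probe per gene, the line of origin as a block, and leaving out each array.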

Additional observations from a re-analysis of the deposited data

Results flagged for a closer look

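Of 12 sets of 4 lines (4 probes in 3 iPS groups), 1 held a line far from the rest by Dixon's test, and chance alone gives about 1 in 20. This was Ooep in iHAC-free lines, where F-C5 at 3.35 stood above the other 3 lines, at 3.0 to 3.04. F-C5 comes from 2-C6, the iHAC2-iPS clone with the lowest Ooep level.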

How the results depend on the processing

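Of 358 values of the member probes under the alternatives, 336 had the direction and the side of the threshold given above, 13 passed the test in addition, 3 no longer passed, and 6 uncalled values near 0 changed sign. Every call in the comparisons with iHAC1-iPS clones held under the alternatives run, and Khdc3 between iHAC1-iPS and iHAC2-iPS clones passed in addition with no filter, a strict filter, a random slide block, or without 2-E (-4.24, adjusted p = 0.0144). For iHAC2-iPS against ES cells, 1 member probe passed, against 0 with only the compared groups and 0 to 2 when 1 array was left out. For iHAC2-iPS against iHAC-free lines, 0 passed, against 2 with normexp (Khdc3 and Ooep), 1 each (Khdc3) with quantile normalization, the deposited value table and the strict filter, and 0 to 2 when 1 array was left out. The replicate block by line of origin gave 1 (Khdc3, adjusted p = 0.0406), and the calls over all probes were 136 with the block and 242 without it. Of the 6 tests of unequal change, 0 had an adjusted p under 0.05, against 4 under normexp and 4 with values not well above background at the detection limit, an alternative chosen after seeing the data. Over the alternatives, calls among all probes ranged from 1867 to 4690 for iHAC1-iPS against ES cells (4483 as reported), 20 to 4450 for iHAC2-iPS against ES cells (2113), 9 to 722 for iHAC-free lines against ES cells (115), 41 to 971 for iHAC2-iPS against iHAC-free lines (242), 2612 to 7564 for iHAC1-iPS against iHAC2-iPS (6270) and 2980 to 6572 for iHAC1-iPS against iHAC-free lines (6303). Of the 5 probes most like each member, 0 or 1 were shared under Spearman's rho or with 11 arrays. Low signal limits Khdc3 and Ooep in iHAC1-iPS clones and Khdc3 in 2-B1 and 2-E. With normexp the median difference of all probes was 0.19 for iHAC1-iPS against iHAC-free lines, 0.16 for iHAC2-iPS against iHAC-free lines and -0.16 for iHAC-free lines against ES cells. Probes called higher and lower were 2728 and 3542 for iHAC1-iPS against iHAC2-iPS but 3338 and 2740 with quantile normalization, and under normexp 114 and 160 for iHAC2-iPS against iHAC-free lines (68 and 174 as reported) and 59 and 115 for iHAC-free lines against ES cells (54 and 61). The cause of these shifts was not tested.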
